A study of Homo sapiens with 4 samples.

Results

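A group of 9 genes that carry or restrain interferon signalling was followed through an early model of colon cancer initiation. They are the receptor chains IFNAR1 and IFNAR2, the signal transducers STAT2 and STAT3, the interferon regulatory factors IRF1, IRF3, IRF7 and IRF9, and the feedback inhibitor SOCS1. The genes were taken by symbol, 9 of the 33538 listed in each library, by a rule that uses no measured value. The set was nevertheless chosen with earlier results of these data known. The cells were HCEC 1CT, a human colonic epithelial cell line immortalized with TERT and CDK4 that the labels describe as progenitor cells. They were transduced with an shRNA against the tumour suppressor APC (shAPC) or with a scrambled shRNA (shScramble, here shScr), kept under puromycin, and harvested at day 3 or day 7 for droplet single-cell RNA-seq of transcript 3′ ends. The 4 groups, each with 1 library of 1 line, are given throughout in the order shScr and shAPC at day 3, then shScr and shAPC at day 7. All of them carry the viral vector, the immortalizing genes and the puromycin selection, and the set used here holds no untransduced cells and no second shRNA. The virus is called a retrovirus in the labels and a lentivirus in the study's methods.

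Type I interferons bind the IFNAR1 and IFNAR2 chains, whose kinases phosphorylate STAT proteins. STAT2 joins IRF9 in the ISGF3 complex, which binds interferon-stimulated response elements (ISRE) in antiviral genes, while STAT dimers bind gamma-activated sites (GAS). IRF3 is held ready in the cytoplasm and drives the first interferon genes once a sensor of foreign nucleic acid has fired, IRF7 is made in quantity only after interferon has been sensed and amplifies its production, IRF1 is an inducible activator downstream of GAS binding and NF-kB, and SOCS1 blocks the receptor kinases.

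Promoter sequence shows which of these genes carry one of the elements close to the start. The RefSeq promoter table (GRCh38.p14, 250 bases before to 50 after each start) held entries for 6 of the 9 genes. It was searched on both strands for the ISRE letters, which are GAAA, any 2 bases and GAAA again, and the GAS letters TTCNNNGAA, which read the same on both strands. IRF1 and IRF9 held 1 GAS match each and SOCS1 held 1 ISRE match. STAT2, STAT3 and both IFNAR1 entries held neither, and IRF3, IRF7 and IFNAR2 were not searched. Of all 35116 promoters in the table, 3.57% held the ISRE letters and 7.66% the GAS letters, so a match is a description of these letters and not a site. The matches are shown in capitals with 40 bases on each side, on the strand of the gene. The windows are chr5:132490849-132490937 on the minus strand for IRF1, chr14:24161162-24161250 on the plus strand for IRF9 and chr16:11256268-11256357 on the minus strand for SOCS1. The first capital lies 124 bases before the start in IRF1, 63 in IRF9 and 113 in SOCS1. These distances count from the RefSeq start in the promoter table, which for IRF1 lies inside the longer gene span that GENCODE annotates and that is given with the gene's values.
IRF1: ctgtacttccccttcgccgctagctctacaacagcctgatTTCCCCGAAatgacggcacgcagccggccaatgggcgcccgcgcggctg
IRF9: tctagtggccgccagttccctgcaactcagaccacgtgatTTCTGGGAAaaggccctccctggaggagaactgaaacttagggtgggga
SOCS1: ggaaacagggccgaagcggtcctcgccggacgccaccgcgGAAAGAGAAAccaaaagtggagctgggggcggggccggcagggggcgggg

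Each value below rests on the unique molecular identifiers (UMIs, 1 per captured transcript) of the cells that passed the filters, summed per library. Between 788 and 2600 cells were kept per library, with 28451455 to 39797418 UMIs. Median depth ran from 1330 UMIs per cell in shScr day 7 to 49685.5 in shAPC day 3. The limit on mitochondrial UMIs removed 24.1% to 28.8% of barcodes from 3 libraries and 51.3% from shAPC day 7. Levels are UMIs of a gene over the library total, scaled to counts per 1000000 (CPM), with exact Poisson 95% intervals, and ratios carry exact conditional binomial 95% intervals. With 1 library per group no spread between cultures can be measured, so the intervals cover counting error only and no difference has a replicate check. The targeted gene, APC (chromosome 5 at 112707518 to 112846239), was at 16.1 CPM in shScr and 5.52 CPM in shAPC at day 3, and at 19.1 and 6.61 CPM at day 7. The labelled cell type was borne out by part of its markers. EPCAM had at most 2 and CDH1 at most 1 UMI per library. KRT8 was at 9.57 to 19.4 CPM and CLDN7 at 6.26 to 16.9 CPM. Of 6 epithelial markers, 2 to 4 reached 5 CPM in each library. Together the 6 reached 24.98 to 49.2 CPM, against 5709 to 7713 CPM for 6 mesenchymal markers led by VIM. Of 7 leukocyte markers, 5 or 6 stood at 3 UMIs or fewer in every library, the exceptions being CD68 and, except in shAPC day 7, CD14. The day 3 libraries shared 23 barcodes, and 22 of these were under 2000 UMIs in shScr and over 10000 in shAPC. The day 7 libraries shared 25, and the other pairs 2 to 7.

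At day 3 IRF1 and IRF7 stood far apart from the rest of the 9 genes, both several times higher in shAPC than in shScr. By total UMIs STAT2, IRF9 and SOCS1 leaned the same way there by less than 2-fold. SOCS1 did not do so with every cell weighted alike. At day 7 IRF1 and IRF7 were lower in shAPC than in shScr, with the ratio of IFNAR2 between theirs. STAT3 and IRF3 moved with the bulk of all genes, and the receptor chains were level between the arms at day 3 by total UMIs, below the all-gene median there, and lower in shAPC at day 7.

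IFNAR1 (ENSG00000142166, chromosome 21 at 33324387 to 33359864, plus strand, protein coding) is the signalling chain of the type I receptor. It had 1179 UMIs in shScr day 3, 1027 in shAPC day 3, 919 in shScr day 7 and 664 in shAPC day 7. These are 29.6, 29.4, 29.4 and 23.3 CPM. By total UMIs the first 3 libraries did not differ beyond their counting intervals, and shAPC day 7 lay under each of them. The step from shAPC day 3 to shAPC day 7 depends on this scaling. Its log2 ratio was -0.33 by total UMIs and -0.03 with TMM scaling. IFNAR2 (ENSG00000159110, chromosome 21 at 33205282 to 33265675, plus strand) is the chain that binds interferon most tightly. It stood at 8.87 CPM in shScr day 3, 9.07 in shAPC day 3, 10.5 in shScr day 7 and 6.96 in shAPC day 7. Here too the lowest library was shAPC day 7, and the steps between the other 3 in order of level were within counting error. The ends of these 3 differed by more, with shScr day 7 over shScr day 3 at a log2 ratio of 0.24 (0.02 to 0.46). That direction reversed with every cell weighted alike. The day 7 log2 ratio of shAPC to shScr was -0.33 (-0.48 to -0.19) for IFNAR1 and -0.59 (-0.86 to -0.33) for IFNAR2, against a median of -0.04 over all genes tested.

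STAT2 (ENSG00000170581, chromosome 12 at 56341597 to 56360203, minus strand), the subunit that gives ISGF3 its activation domain, had 1445 and 2048 UMIs at day 3 and 1188 and 991 at day 7. Its levels were 36.3 CPM in shScr and 58.6 in shAPC at day 3, and 38.0 and 34.8 CPM at day 7. shAPC day 3 was the high library, 1.61-fold over shScr day 3 (1.51 to 1.73), and neighbouring levels among the other 3 libraries differed by no more than counting error. The ends of these 3 were the day 7 libraries, with a shAPC to shScr log2 ratio of -0.13 (-0.25 to -0.004). IRF9 (ENSG00000213928, chromosome 14 at 24161234 to 24168043, plus strand), which supplies the main DNA contact of the same complex, had the same highest and lowest library at far fewer counts. It had 165, 251, 128 and 107 UMIs, or 4.15, 7.18, 4.10 and 3.76 CPM. The shAPC to shScr ratio of IRF9 at day 3 was 1.73-fold (1.42 to 2.12).

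STAT3 (ENSG00000168610, chromosome 17 at 42313324 to 42388540, minus strand) answers chiefly to cytokines of the IL6 family. It was at 30.0 CPM in shScr day 3, 36.7 in shAPC day 3, 27.3 in shScr day 7 and 26.8 in shAPC day 7. Both day 7 libraries were indistinguishable by counts, and the day 3 log2 ratio of 0.29 (0.18 to 0.41) was -0.04 once the all-gene median of 0.33 was taken off.

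IRF3 (ENSG00000126456, chromosome 19 at 49659569 to 49665875, minus strand), which is made constitutively and activated by phosphorylation, was at 25.9 CPM in shScr and 33.1 in shAPC at day 3, and at 25.6 and 24.3 CPM at day 7. Its day 3 log2 ratio of 0.36 (0.23 to 0.48) was 0.03 relative to all genes, and the other 3 libraries did not differ beyond counting error in order of level.

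IRF7 (ENSG00000185507, chromosome 11 at 612553 to 615983, minus strand), the inducible amplifier, had 443 UMIs in shScr day 3, 1520 in shAPC day 3, 279 in shScr day 7 and 175 in shAPC day 7. These are 11.1 CPM (10.1 to 12.2), 43.5 (41.3 to 45.7), 8.93 (7.92 to 10.0) and 6.15 (5.27 to 7.13). Every step of this order was larger than counting error, which held for no other member. At day 3 shAPC exceeded shScr 3.91-fold (3.51 to 4.35). At day 7 the direction was the opposite, with 0.689 times the shScr level (0.567 to 0.835). IRF7 spanned a 7.07-fold range over the 4 libraries, and in both arms its day 7 level lay below its day 3 level.

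IRF1 (ENSG00000125347, chromosome 5 at 132440440 to 132508719, minus strand), the first IRF to be described and the one with the GAS letters printed above, was counted 392 and 1970 times at day 3, and 501 and 279 times at day 7. Its levels were 9.85 CPM (8.90 to 10.9), 56.4 (53.9 to 58.9), 16.0 (14.7 to 17.5) and 9.81 (8.69 to 11.03). The ratio at day 3 was 5.72-fold (5.13 to 6.39), a log2 ratio of 2.52, and that at day 7 was 0.611-fold (0.526 to 0.709). The day 3 log2 ratio was 1.85 without the 5% of cells with the most UMIs and 1.51 with every cell weighted alike, both still past 2-fold. Unlike IRF7, IRF1 was higher at day 7 than at day 3 in the control arm, by a log2 ratio of 0.70 (0.51 to 0.90), which was 0.10 without the deepest 5% of cells and 0.07 with every cell weighted alike. In shAPC it was lower at day 7 by far, at -2.52 (-2.71 to -2.34), and shScr day 3 and shAPC day 7 were the pair with levels alike within counting error.

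SOCS1 (ENSG00000185338, chromosome 16 at 11254417 to 11256204, minus strand), which silences the receptor kinases JAK1, JAK2 and TYK2 and whose promoter held the ISRE letters, was the scarcest of the 9 by UMIs. It had 77, 122, 84 and 78 UMIs, or 1.93 and 3.49 CPM at day 3 and 2.69 and 2.74 CPM at day 7 in shScr and shAPC. shAPC day 3 was again the highest, 1.80-fold over shScr day 3 (1.35 to 2.43), but it did not differ from shAPC day 7 beyond counting error. In shAPC day 3, 1 cell held 15 of the SOCS1 UMIs, or 12.3%, and the intervals do not allow for such clumping. With every cell weighted alike, SOCS1 was not higher in shAPC at day 3. At day 7 the arms were at a ratio of 1.02 (0.739 to 1.40), an interval that leaves room for a difference of up to 1.40-fold at this depth.

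**Figure D1:**
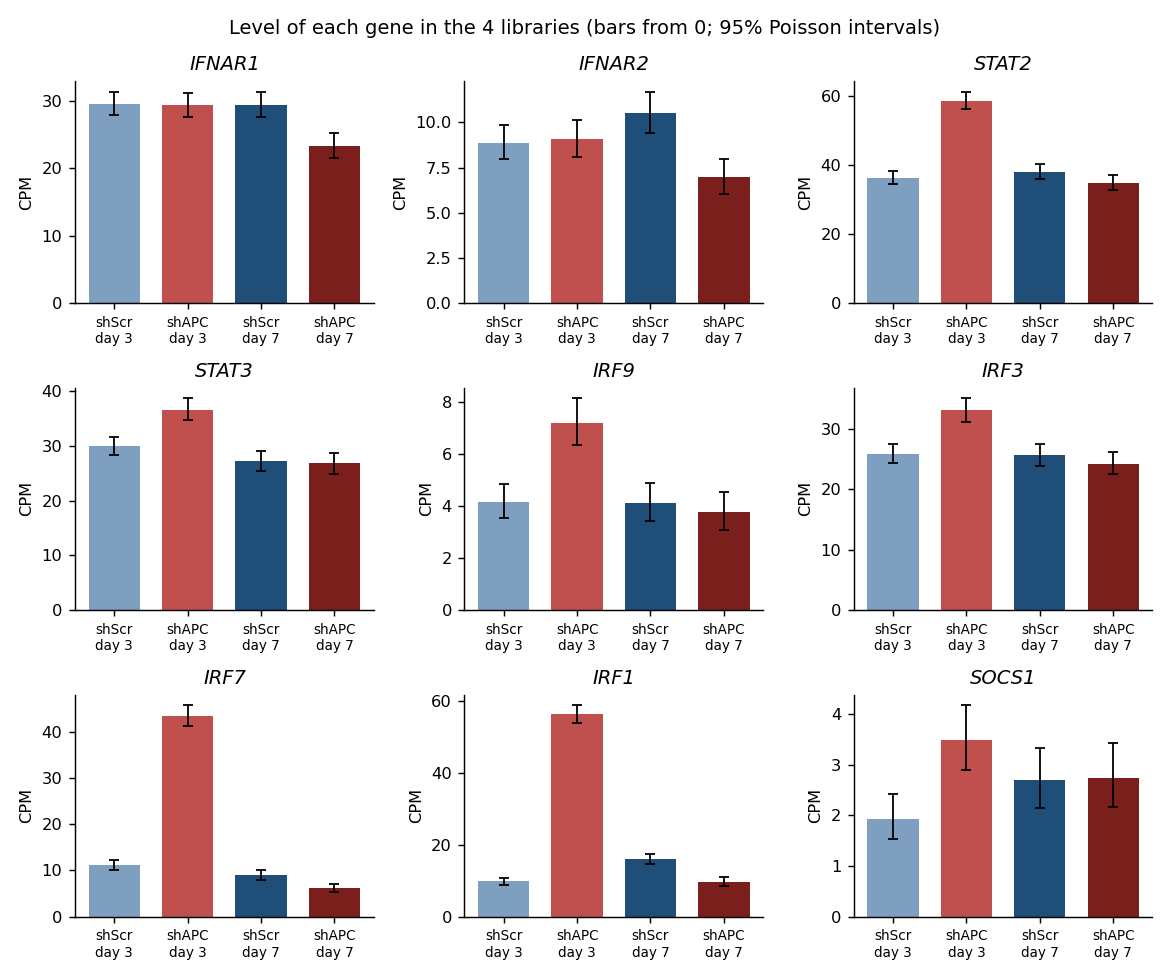
Level of each of the 9 genes in CPM (vertical axes, from 0, scaled per gene) in the 4 libraries, with bars for the level and whiskers for the 95% Poisson interval. The shAPC day 3 bar is the tallest for 7 genes, by far for IRF7 (43.5 CPM) and IRF1 (56.4 CPM), while IFNAR1 and IFNAR2 are lowest in shAPC day 7.

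To read these ratios against the transcriptome, a 2-fold difference in CPM was counted among genes that reached 5 CPM in either library of a comparison. At day 3, 8 of the 9 genes reached that level, and SOCS1 did not. IRF1 and IRF7 passed 2-fold as higher in shAPC, while 5.39% of 9680 genes did so, and 0 members were at least 2-fold lower, as were 0.393% of all genes. The median log2 ratio of the 9 genes was 0.69 against 0.33 for all genes, and 6 of the 9 lay above the all-gene median. The ratio of IRF1 was at percentile 99.6 of all genes tested and that of IRF7 at 99.1. Relative to the all-gene median the log2 ratios were 2.19 for IRF1, 1.64 for IRF7, 0.52 for SOCS1, 0.46 for IRF9 and 0.36 for STAT2, while IFNAR1 was at -0.34 and IFNAR2 at -0.30. With TMM scaling the day 3 log2 ratios of the receptor chains were -0.39 and -0.35, against -0.01 and 0.03 by total UMIs. The all-gene median of 0.33 belongs to the scaling by total UMIs. With TMM scaling it was -0.06, and STAT3 and IRF3 turned to -0.09 and -0.02, so these genes have no direction at day 3 that holds across scalings.

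At day 7, 7 of the 9 genes reached the level, without IRF9 and SOCS1. None passed 2-fold in either direction, when 1.43% of 9289 genes were at least 2-fold higher and 1.72% at least 2-fold lower. The median of the 9 was -0.13 against -0.04 for all genes, and 2 of the 9 lay above the all-gene median. IRF1 at -0.71 (-0.93 to -0.50), IFNAR2 at -0.59 and IRF7 at -0.54 (-0.82 to -0.26) were the lowest.

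From day 3 to day 7 the control arm differed little. Of the 7 genes at the required level none passed 2-fold, against 0.427% of 9126 genes higher and 0.822% lower at day 7, and the median of the 9 was -0.01 against 0.04. IRF1 at 0.70 and IRF7 at -0.32 (-0.54 to -0.10) lay farthest apart. In shAPC all 9 genes had a lower CPM at day 7 than at day 3. Of the 8 at the required level, IRF7 at -2.82 (-3.06 to -2.60) and IRF1 at -2.52 were at least 2-fold lower, as were 6.36% of 9711 genes, and 0 were 2-fold higher, as were 0.299%. The median of the 9 was -0.45 and that of all genes -0.33. IRF9 was at -0.93 (-1.27 to -0.60), STAT2 at -0.75 (-0.86 to -0.64), STAT3 and IRF3 at -0.45 each, IFNAR2 at -0.38, SOCS1 at -0.35 (-0.78 to 0.07) and IFNAR1 at -0.33. With TMM scaling this comparison had IFNAR1 at -0.03, IFNAR2 at -0.08 and an all-gene median of -0.02. This comparison shares the shAPC day 3 library with the day 3 comparison, so these are not separate observations of that library.

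**Figure D2:**
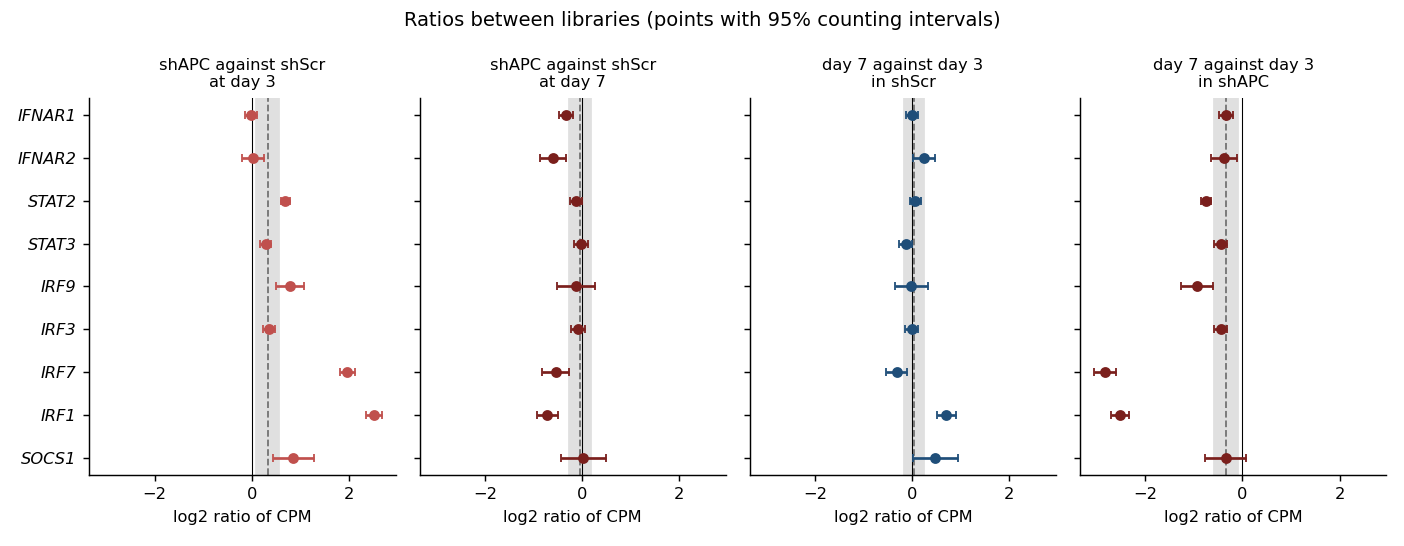
Log2 ratio of CPM (horizontal axes) of the 9 genes in the 4 comparisons, as points with 95% counting intervals, with a dashed line at the median of all genes tested and a grey band over their middle quartiles. IRF1 and IRF7 sit far right of the band for shAPC against shScr at day 3 (2.52 and 1.97) and far left of it for day 7 against day 3 in shAPC (-2.52 and -2.82).

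The cells of each library were then set in order by their own interferon response, to see which of the 9 genes varied with it among cells treated alike. Cells of at least 2000 UMIs were ranked by the share of their UMIs from 16 interferon-stimulated genes (ISGs, such as ISG15, IFIT1 and MX1), none of them a member, and cut into 3 equal groups. The ISGs took 184, 1461, 208 and 94.6 CPM in the lowest group and 1670, 7532, 2107 and 930 CPM in the highest, in the order of libraries given above. Thus even the lowest group of shAPC day 3 was close to the highest of shScr day 3. Cells are not replicates, and what follows describes single libraries. Median depth was lower in the highest group than in the lowest in every library, for example 51371 against 58120 UMIs in shAPC day 3.

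IRF7 was higher in the highest group in all 4 libraries. It went from 5.46 to 17.6 CPM in shScr day 3, from 16.1 to 87.4 in shAPC day 3, from 4.01 to 17.1 in shScr day 7 and from 3.43 to 11.9 in shAPC day 7. These are log2 ratios of 1.69, 2.44, 2.09 and 1.79, each with an interval above 1. The shares of all tested genes at least 2-fold higher in the highest group were 1.21%, 12.9%, 3.18% and 2.24% in the same order. Their median log2 ratios were -0.02, 0.23, 0.04 and 0.08, so a ratio above 0 in shAPC day 3 is partly shared with all genes. STAT2 followed the ISGs by smaller steps, at 0.79, 0.80, 0.68 and 0.50, with all 4 intervals above 0.

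IRF1 depended on the library. In shScr day 3 its level hardly varied with the ISGs, at 9.66 CPM in the lowest and 11.1 in the highest group (log2 ratio 0.20, -0.16 to 0.56). In shAPC day 3 it went from 14.7 to 128 CPM, a log2 ratio of 3.13 (2.91 to 3.36). At day 7 the ratios were 1.61 (1.27 to 1.96) in shScr and 1.10 (0.65 to 1.55) in shAPC. SOCS1 went from 1.75 to 6.78 CPM in shAPC day 3, a log2 ratio of 1.95 (1.25 to 2.71) on 22 and 77 UMIs, and had intervals above 0 in both shScr libraries.

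The remaining members varied less. IRF3 had log2 ratios of 0.09, 0.57, 0.27 and 0.45, with intervals above 0 in all but shScr day 3. IRF9 had intervals above 0 in both day 7 libraries, at 0.84 (0.13 to 1.56) in shScr and 0.75 (0.06 to 1.45) in shAPC. At day 3 its intervals included 0, at 0.47 (-0.12 to 1.06) in shScr and -0.26 (-0.72 to 0.20) in shAPC. STAT3 lay between -0.26 and 0.18, IFNAR1 between -0.28 and 0.01, and IFNAR2 between -0.16 and 0.36. The lowest group of shAPC day 3 had 7.57 CPM of IRF9 (6.12 to 9.25), and the next level in another library was 5.43 CPM in the highest group of shAPC day 7, with overlapping intervals.

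**Figure D3:**
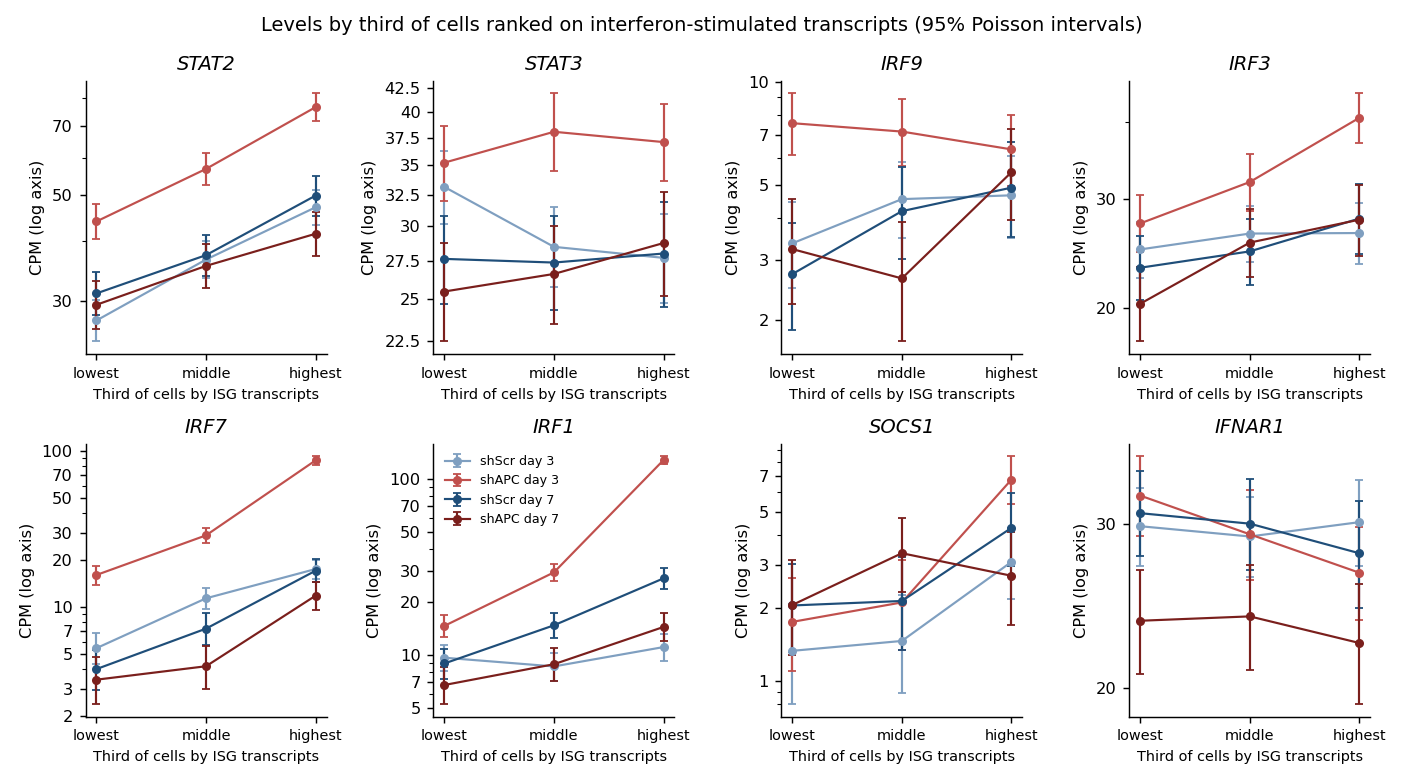
Level in CPM (vertical log axes, scaled per gene) of 8 of the genes in the lowest, middle and highest of 3 equal groups of cells ranked on ISG transcripts, with 1 line per library and 95% Poisson intervals. The IRF7 lines climb in all 4 libraries, the IRF1 line climbs most in shAPC day 3 (14.7 to 128 CPM) and is flat in shScr day 3, and the IFNAR1 lines stay level or decline.

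The excess of IRF1 in shAPC day 3 sat in few cells. If UMIs were spread over cells in proportion to depth, 71.9% of shAPC day 3 cells would hold an IRF1 UMI, and 37.2% did. In shScr day 7 the corresponding shares were 15.0% and 7.54%, in shAPC day 7 16.2% and 11.4%, and in shScr day 3 26.7% and 21.4%. IRF7 was uneven in shAPC day 3, with 53.6% of cells against 67.9%, and so was SOCS1 at far fewer counts, with 9.39% against 13.8%. By contrast IRF3 in that library was seen in 59.4% of cells against 62.6%, and STAT3 in 61.3% against 64.7%.

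Cells with at least 10 IRF1 UMIs numbered 41 of 788 in shAPC day 3, and they held 77.0% of its IRF1 UMIs, up to 119 in 1 cell. There were 2 such cells in shScr day 3, 12 in shScr day 7 with 48.5% of the UMIs, and 3 in shAPC day 7. Cells with at least 10 IRF7 UMIs occurred in shAPC day 3 alone, 31 of them with 39.2% of its IRF7 UMIs. Of these cells 19 were rich in both factors, which is 46.3% of the IRF1-rich and 61.3% of the IRF7-rich cells. Cells with at least 10 STAT2 UMIs numbered 26 in shAPC day 3, with 18.4% of its STAT2 UMIs. There were 3 in shScr day 3, 1 in shScr day 7 and 0 in shAPC day 7. The remaining members had at most 4 such cells in a library. In shAPC day 3 the rich cells were deep, at a median of 96122 UMIs for IRF1, 99826 for IRF7 and 97176 for STAT2. The part of depth in their number was not tested.

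**Figure D4:**
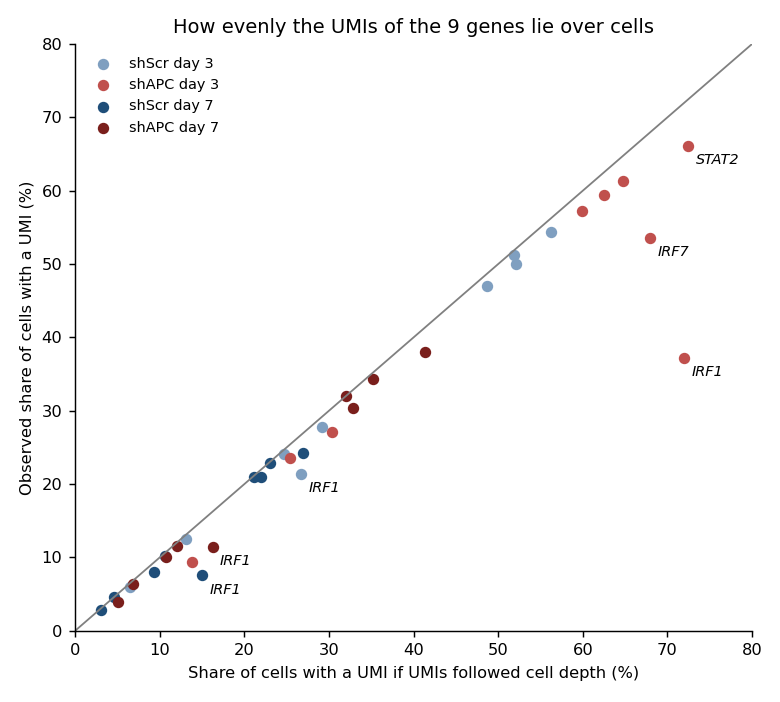
Observed share of cells with a UMI (vertical axis, %) against the share if a gene's UMIs followed cell depth (horizontal axis, %), 1 point per gene and library, with the line of equality. Most points lie on or just under the line, and IRF1 (37.2% against 71.9%) and IRF7 (53.6% against 67.9%) of shAPC day 3 lie farthest below it.

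In shAPC day 3, cells with a UMI of ATF3, a stress-induced transcription factor, held 1503 IRF1 UMIs and the rest held 467. This split was chosen after values had been seen. Cells with an ATF3 UMI were 16.5% of shAPC day 3 and 2.77% to 3.14% of the other libraries. They were deeper than the rest in every library. Median depth was 62344 against 47221.5 UMIs in shAPC day 3 and 26880 against 1245 in shScr day 7, for example. The part of depth in this split was not tested. In shAPC day 3 IRF1 was at 175 CPM in ATF3-positive cells and 17.7 CPM in the rest, against 9.77 CPM in shScr day 3 cells without ATF3. IRF1 was likewise at 131 against 8.14 CPM in shScr day 7 and 75.7 against 6.53 CPM in shAPC day 7, but at 11.3 against 9.77 CPM in shScr day 3. Without the ATF3-positive cells the day 3 log2 ratio of IRF1 went from 2.52 to 0.86, which is under 2-fold, and its day 7 to day 3 ratio in shScr turned from 0.70 to -0.26. Leaving them out also moved the day 3 median of all genes from 0.33 to 0.23. The share of all genes past 2-fold at day 3 went from 5.79% to 2.11%.

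IRF7 was less bound to these cells. It was at 93.5 CPM with ATF3 and 27.2 CPM without in shAPC day 3, and without them its day 3 log2 ratio went from 1.97 to 1.34. SOCS1 in shAPC day 3 was at 8.03 CPM with ATF3 and 2.01 without, the latter close to the 1.95 CPM of shScr day 3 cells without ATF3, and STAT2 was at 77.1 and 52.6 CPM. IFNAR2 at 13.3 and 7.70 CPM, STAT3 at 47.3 and 33.2 CPM and IRF3 at 38.4 and 31.3 CPM were also higher with ATF3. Their log2 ratios were 0.79 (0.44 to 1.12), 0.51 (0.34 to 0.68) and 0.29 (0.11 to 0.48), beside 0.55 for STAT2. No all-gene median was taken for this split, so such ratios cannot be read as particular to these genes. IRF9 at 7.33 and 7.13 CPM and IFNAR1 at 28.6 and 29.6 CPM were alike in both sets. Leaving out barcodes found in more than 1 library moved the day 3 log2 ratio of IRF1 to 2.35 and that of IRF7 to 1.89.

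**Figure D5:**
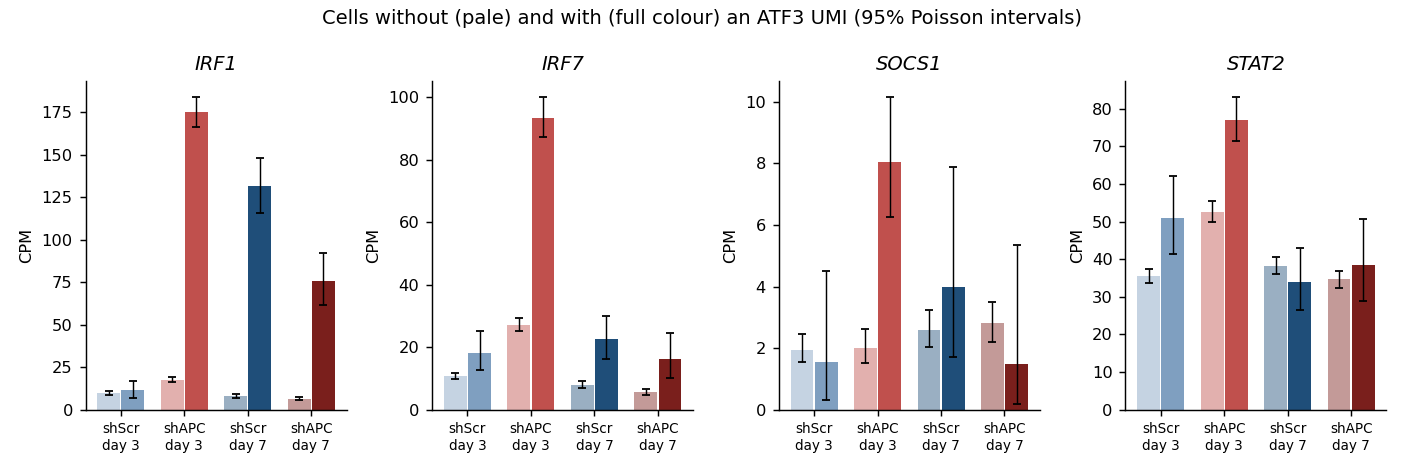
Level in CPM (vertical axes, from 0, scaled per gene) of IRF1, IRF7, SOCS1 and STAT2 in cells without (pale bars) and with (full bars) an ATF3 UMI in each library, with 95% Poisson intervals. IRF1 reaches 175 CPM in the ATF3-positive cells of shAPC day 3 and 131 CPM in those of shScr day 7, while STAT2 differs less, at 77.1 against 52.6 CPM in shAPC day 3.

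The ligand transcript was rarer still. IFNB1, the gene of interferon beta, had 829 UMIs in 16 cells of shAPC day 3 (2.03%, 1.16% to 3.28%, exact binomial). It had 11 UMIs in 3 cells of shScr day 7, 1 UMI in shAPC day 7 and 0 in 1116 cells of shScr day 3. With the limit set at 3 counts of the total, that allows a share of up to 0.269% of cells with an IFNB1 UMI and says nothing of cells that express it below detection. Of the shAPC day 3 cells, 3 held 98.2% of those UMIs, with 585, 176 and 53 each. The same cells had 35, 58 and 31 UMIs of IRF1, 28, 16 and 44 of IRF7 and 6, 18 and 15 of STAT2. Their IRF1 level was 480 CPM against 53.2 in the rest of the library, that of IRF7 was 341 against 41.3, and that of STAT2 was 151 against 57.9. They held 1 or 2 IFNAR1 and 1 IFNAR2 UMI each. Over all 16 cells with an IFNB1 UMI, IFNAR2 was at 17.3 CPM on 26 UMIs, against 8.70 CPM without. That is a log2 ratio of 0.99 (0.35 to 1.57), beside an all-gene median of 0.15. The interval of IFNAR1 included 0, at 0.27 (-0.15 to 0.67).

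These 3 cells carried 6.29% of the IRF1 and 5.79% of the IRF7 UMIs of shAPC day 3. All 16 cells with an IFNB1 UMI held 395 IRF1 UMIs, at 262 CPM, and the rest of that library held 1575, at 47.1 CPM. For IRF7 the 16 cells held 184 UMIs, at 122 CPM, and the rest 1336, at 39.95 CPM. Both factors were thus higher in cells with an IFNB1 UMI, while most of their UMIs lay in cells without one. Without any cell that held an IFNB1 UMI the day 3 log2 ratio was 2.26 for IRF1 and 1.84 for IRF7. Of the other interferon genes, IFNE had 38 to 65 UMIs per library, IFNL1 had 1 UMI in shAPC day 3, and IFNK, IFNG, IFNL2, IFNL3, IFNA1, IFNA2 and IFNA5 had 0 in every library.

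The share of cells with a UMI was compared after thinning each cell to 2000 UMIs, which left out 217, 115, 1402 and 391 shallower cells in that order of libraries. IRF1 was then seen in 1.89% (1.11% to 3.01%), 6.98% (5.18% to 9.18%), 2.59% and 2.12% of cells, IRF7 in 3.11%, 6.69%, 1.92% and 0.828%, and STAT2 in 6.23%, 10.3%, 6.68% and 6.62%. For these 3 genes the day 3 intervals of shAPC and shScr did not overlap, and for the other 6 they did. Among all genes tested, 6.83% had such separate intervals at day 3. Thinned to 1000 UMIs, IRF7 was the 1 member that kept separate intervals at day 3. At day 7 and from day 3 to day 7 in shScr all 9 pairs of intervals overlapped, while 10.3% and 6.4% of all genes were separate. In shAPC over time the intervals of IRF1 and IRF7 were separate, as were those of 11.5% of all genes. Before thinning IRF1 was seen in 21.4%, 37.2%, 7.54% and 11.4% of cells. Each library is 1 cell line, so a cell type that lacks these genes was not at hand. PTPRC, a leukocyte gene, had 0, 0, 0 and 1 UMI. The part of free RNA in these shares was not tested.

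The rest of the pathway set the members in context. Of 43 other genes of receptors, kinases, STATs, IRFs, inhibitors and adaptors, 33, 29, 31 and 33 reached 5 CPM in the day 3, day 7, shScr and shAPC comparisons. At day 3, 1 was at least 2-fold higher in shAPC and 0 were lower, namely USP18, which removes ISG15 from proteins and blocks IFNAR2 signalling, at 9.25 CPM in shScr and 29.4 CPM in shAPC. Their median log2 ratio was 0.33, equal to that of all genes. The kinases JAK1 and TYK2 were among those under 2-fold in all 4 comparisons.

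At day 7, 1 of the 29 was at least 2-fold lower in shAPC, TMEM173, the gene of the DNA sensing adaptor STING, at 21.1 against 42.9 CPM, and 0 were higher. In the control arm 1 of 31 was lower at day 7, the interleukin 10 and lambda interferon receptor chain IL10RB (6.56 to 2.59 CPM), and 0 were higher. In shAPC 6 of 33 were lower at day 7 and 0 higher. Among them were USP18 (29.4 to 3.90 CPM), IL10RB (6.01 to 2.71 CPM) and the signalling genes MYD88 (26.2 to 11.6 CPM), IKBKE (16.7 to 7.42 CPM) and TRAF6 (5.90 to 2.88 CPM). The shares of all genes called in each comparison are those given for the members.

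Likeness of pattern was measured for IRF1 and IRF7, whose levels span at least 2-fold, as the Euclidean distance between centred log2 CPM values over the 4 libraries, among 8394 genes. The nearest to IRF7 were HERC6 at a distance of 0.148, EPSTI1 at 0.252 and OAS3 at 0.256, all known as interferon-stimulated genes. HERC6 was at 12.4, 46.2, 8.68 and 6.29 CPM in the order used above. The nearest to IRF1 were NFKBIE, an inhibitor of NF-kB, at 0.217, the amino acid transporter subunit SLC3A2 at 0.341 and the serpin SERPINB2 at 0.355. NFKBIE was at 7.01, 33.0, 9.80 and 6.50 CPM, and thus had the higher shScr day 7 level that IRF1 has and IRF7 lacks. With 4 points a likeness of pattern is a description.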

How the data were processed

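Single-cell RNA-seq libraries of HCEC 1CT cells (droplet 3′ chemistry, v2 in the labels and V3 in the study's methods) were aligned and counted by the authors with Cell Ranger and STAR against GRCh38. The labels name version 3.0.2, and the file headers give 3.0.2 for both shScr and 3.0.0 for both shAPC libraries, so version and shRNA cannot be told apart. The deposited values are raw UMI counts per gene and barcode, with 1 library per group.

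A barcode was kept if it had 200 genes or more, 500 UMIs or more, and less than 5% of UMIs from the 13 mitochondrial genes. UMIs were summed per library and divided by the total of the kept cells (CPM). No test was possible with 1 library per group. Levels carry exact Poisson and ratios and shares exact binomial (Clopper-Pearson) 95% intervals, with a count of 0 set to 3 counts in a ratio. PCR duplicates are collapsed by UMI, and intervals and limits cover counting error only. Genes were counted as different at 2-fold with at least 5 CPM in 1 of the 2 libraries. The 3′ tags are not scaled by length, so levels are compared between libraries and not between genes.

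No doublet caller was run, and an alternative left out the 5% of cells with the most UMIs. The members and lists were chosen with earlier results of these data known. The 9 members are described in every library, pathway genes are named at 2-fold, and 3 pattern neighbours are named for each member with a 2-fold range. Gene positions are from GENCODE 44 (hg38). Ratios and intervals were tested on simulated data. Python 3.11.15, numpy 2.4.6, scipy 1.17.1, pandas 2.3.3, matplotlib 3.10.9, R 4.3.3 and edgeR 4.0.16 (TMM factors) were used. Alternatives changed the scaling, the totals, the limits on cells, the weighting of cells, the minimum level, the fold and the thinning. The 2 alternatives added after seeing the data left out ATF3-positive cells or barcodes found in more than 1 library. A pathway gene enters the counts but is not reported here.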

Additional observations from a re-analysis of the deposited data

Results flagged for a closer look

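The shAPC to shScr ratio pointed in opposite directions at the 2 days for 3 of the 9 genes, with counting intervals on either side of 0. For IRF1 the log2 ratio at day 3 minus that at day 7 was 3.23 (2.96 to 3.49), from 2.52 and -0.71. For IRF7 it was 2.50 (2.19 to 2.82), from 1.97 and -0.54. For STAT2 it was 0.82 (0.66 to 0.97), from 0.69 and -0.13. With 1 library per group, the difference between days could not be tested against the spread between cultures. The all-gene median ratio also differed between the days, at 0.33 and -0.04, and its part in the smaller difference of STAT2 was not tested. The day 7 direction of STAT2 turned when the limit on mitochondrial UMIs was relaxed, to 0.07 at 10%. ATF3-positive cells, 16.5% of shAPC day 3, held much of the IRF1 difference, since without them its log2 ratios were 0.86 at day 3 and -0.32 at day 7. Without them IRF7 stood at 1.34 and -0.50.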

How the results depend on the processing

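IRF7 stayed at least 2-fold higher in shAPC at day 3 under all 12 alternatives that recompute the ratio, from 1.34 without ATF3-positive cells to 1.97. IRF1 did so except without those cells (0.86). Among ratios whose counting interval excluded 0, the direction reversed for STAT3 at day 3 with TMM (-0.0897) and median-of-ratios size factors (-0.0728), IRF3 at day 3 with the same scalings (-0.0244 and -0.0076), STAT2 at day 7 with all deposited barcodes (0.0657) and a mitochondrial limit of 10% (0.0684), IRF1 over time in shScr without ATF3-positive cells (-0.26), and, with every cell weighted alike (mean over cells), SOCS1 at day 3 (-0.0183) and IFNAR2 over time in shScr (-0.18). Of the single-gene ratios recomputed, 341 moved by less than counting error, 82 by more and 9 reversed. Ratios whose interval included 0 can also change sign. SOCS1 over time in shAPC (-0.35) was 0.48 without ATF3-positive cells and 0.67 with the mean over cells, and IFNAR2 at day 3 (0.03) was -0.35 with TMM, -0.33 with median-of-ratios factors and -0.67 with the mean over cells.

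The median of the 9 genes at day 3 (0.69) was 0.31 with TMM, 0.33 with median-of-ratios factors, 0.58 with totals without mitochondrial and ribosomal protein genes, 0.51 without the deepest 5% of cells, 0.27 without ATF3-positive cells and 0.23 with the mean over cells. At day 7 (-0.13) it was -0.25 with all barcodes, -0.27 at a 10% mitochondrial limit and -0.54 with the mean over cells. Over time in shAPC (-0.45) it was -0.15 with TMM, -0.15 with median-of-ratios factors and -0.27 without mitochondrial and ribosomal protein genes. The number of genes past 2-fold became 1 at day 3 without ATF3-positive cells (2.11% of all genes), and 1 at day 7 (8.76%) and 1 over time in shScr (6.39%) with the mean over cells. IRF9 made it 3 over time in shAPC with all barcodes (7.09%), a 10% mitochondrial limit (7.15%) and the mean over cells (8.22%), and 3 at day 3 with the mean over cells (7.39%). At 1.5-fold it was 4, 2, 1 and 4 in the 4 comparisons, beside 25.03%, 13.0%, 7.54% and 26.5% of all genes. Genes with thinned shares whose intervals did not overlap numbered 1 at day 3 with 1000 UMIs (4.57% of all genes), 4 over time in shAPC with 5000 UMIs (20.4%), and 6, 5, 9 and 9 unthinned (75.2%, 90.1%, 99.5% and 98.1%), where depth per cell differs. The cause of these changes was not tested. Depth limits IRF9 and SOCS1 most. No paired analysis was possible because each group has 1 library and the labels give no replicate numbers.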
